A study of Marchantia polymorpha and Klebsormidium nitens with 125 samples.

Results

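MpPOD3 (Mp1g09290) and MpPOD49 (Mp4g16740) are 2 of the 164 class III peroxidase genes, and 2 of the 19355 genes, in the count tables of the liverwort Marchantia polymorpha. They were chosen by name from values of the same libraries: MpPOD3 for its level after phosphate starvation and MpPOD49 for its level after sucrose starvation of the wild type. Those contrasts, the changes from those starved libraries on resupply, and the differences from them in the mutants are therefore given as a description without a test. Tested contrasts that use the time-course controls share those libraries with the contrasts that chose the genes. Their p-values are not independent of the choice.

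Class III peroxidases are secreted plant enzymes that bind heme and use hydrogen peroxide to oxidise phenolic compounds. In cell walls they can cross-link phenolics and proteins, which stiffens the wall, and they can also produce reactive oxygen species, which loosens it. They form a large gene family in land plants, and the roles of most members, including MpPOD3 and MpPOD49, are not described in the sources used here.

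The study sequenced polyadenylated RNA of whole gemmalings, young plants grown from the asexual propagules called gemmae. The time course used the wild-type strain Tak-1, grown for 7 days in full Yamagami medium and, apart from untreated controls, starved for 5 days by cutting nitrate salts to 1%, phosphate to 1% or sucrose to none. Full medium was then returned for 6, 24 or 72 h after each starvation. A control-condition set held Tak-1 and the knock-out mutants Mpcsd-2, Mperf20-21 and Mphd9-14, lines of the transcription factor genes MpCSD, MpERF20 and MpHD9, all in full medium. A mutant starvation set held the same 3 mutants in full medium and after 5 days of each starvation, with no Tak-1 library. Each gene was represented by 1 mutant line, so an effect of the gene and one of the line cannot be told apart.

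The time course had 39 libraries in 13 groups with 19930892 to 38992957 counts each. The control-condition set had 12 libraries in 4 groups with 20161746 to 27511775 counts, and the mutant starvation set had 35 libraries in 12 groups with 16878159 to 28439838 counts. Every group had 3 libraries except sucrose-starved Mperf20-21, which had 2. Levels are counts per 1000000 (CPM) scaled within each set, given as mean ± SD over libraries, and changes are log2 fold changes ± SE. Adjusted p-values are from edgeR's quasi-likelihood test, and a gene was called when its adjusted p was under 0.05. In no mutant did all libraries hold less of the mutated gene's transcripts than every library of the other lines. In the control-condition set MpCSD reached 674 to 698 CPM in Mpcsd-2 and 562 to 837 CPM in the other lines. There MpERF20 (6.59 CPM) and MpHD9 (34.3 CPM) had their lowest group means in their own mutants, with libraries that overlapped with other lines. In the mutant starvation set MpCSD was at 529 to 740 CPM in Mpcsd-2 and 372 to 495 CPM in the other mutants. These counts therefore do not check the genotype labels. The tissue label was checked with photosynthesis gene MpRBCS (502 ± 7.83 CPM in controls) and with MpNOP1 of the air pores (105 ± 3.77 CPM), while MpDUO1 of the germ line was at 0.446 ± 0.0584 CPM.

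MpPOD3 was lower in Tak-1 after each of the 3 starvations. The 3 control libraries held 108, 127 and 119 CPM (118 ± 9.28). Nitrate-starved libraries held 73.1, 39.3 and 39.4 CPM (50.6 ± 19.5), and sucrose-starved libraries held 76.7, 69.7 and 85.1 CPM (77.2 ± 7.7). Phosphate-starved libraries, which chose the gene, held 33.2, 69.9 and 42.5 CPM (48.5 ± 19.1). No starved library reached the lowest control library under any of the 3 treatments. Within the starved groups, replicate 1 was the highest under nitrate starvation and replicate 2 was the highest under phosphate starvation.

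Under nitrate starvation MpPOD3 fell by 1.22 ± 0.23 (adjusted p = 0.000131), in a comparison where 31.6% of the 13504 genes tested were called. Under sucrose starvation it fell by 0.61 ± 0.23 (adjusted p = 0.0356), where 35.3% of genes were called. The sucrose call was lost when control replicate 2 or 3, or starved replicate 1 or 2, was left out, with adjusted p up to 0.121. The phosphate difference that chose the gene was -1.29 ± 0.23, and -1.64 without starved replicate 2, beside 24.6% of genes called there. All 3 comparisons share the same control libraries and do not count as independent of each other or of the choice of the gene. In RNA from whole plants, fewer cells of a type and less RNA per cell cannot be told apart.

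MpPOD49 was a gene of few counts in Tak-1 except after sucrose starvation. The control libraries held 53, 31 and 24 counts (1.68, 1.30 and 0.914 CPM; 1.30 ± 0.385). The sucrose-starved libraries, which chose the gene, held 248, 219 and 361 counts (11.9, 8.73 and 18.4 CPM; 13 ± 4.93), a difference of 3.31 ± 0.57, or 9.92-fold. Every sucrose-starved library was above every other library of the time course.

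After phosphate starvation MpPOD49 was lower, with 12, 5 and 13 counts (0.344 ± 0.106 CPM) and no overlap with the controls. It fell by 1.88 ± 0.67 (adjusted p = 0.0401), against control libraries that also entered the contrast that chose the gene. That call was lost when control replicate 1 or 2, or any of the 3 phosphate-starved libraries, was left out, with adjusted p up to 0.129. After nitrate starvation the libraries held 0.603, 0.705 and 1.44 CPM (0.915 ± 0.456) and overlapped with the controls. The nitrate difference was -0.53 ± 0.60, with a 95% interval from -1.74 to 0.69 (adjusted p = 0.538).

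**Figure D1:**
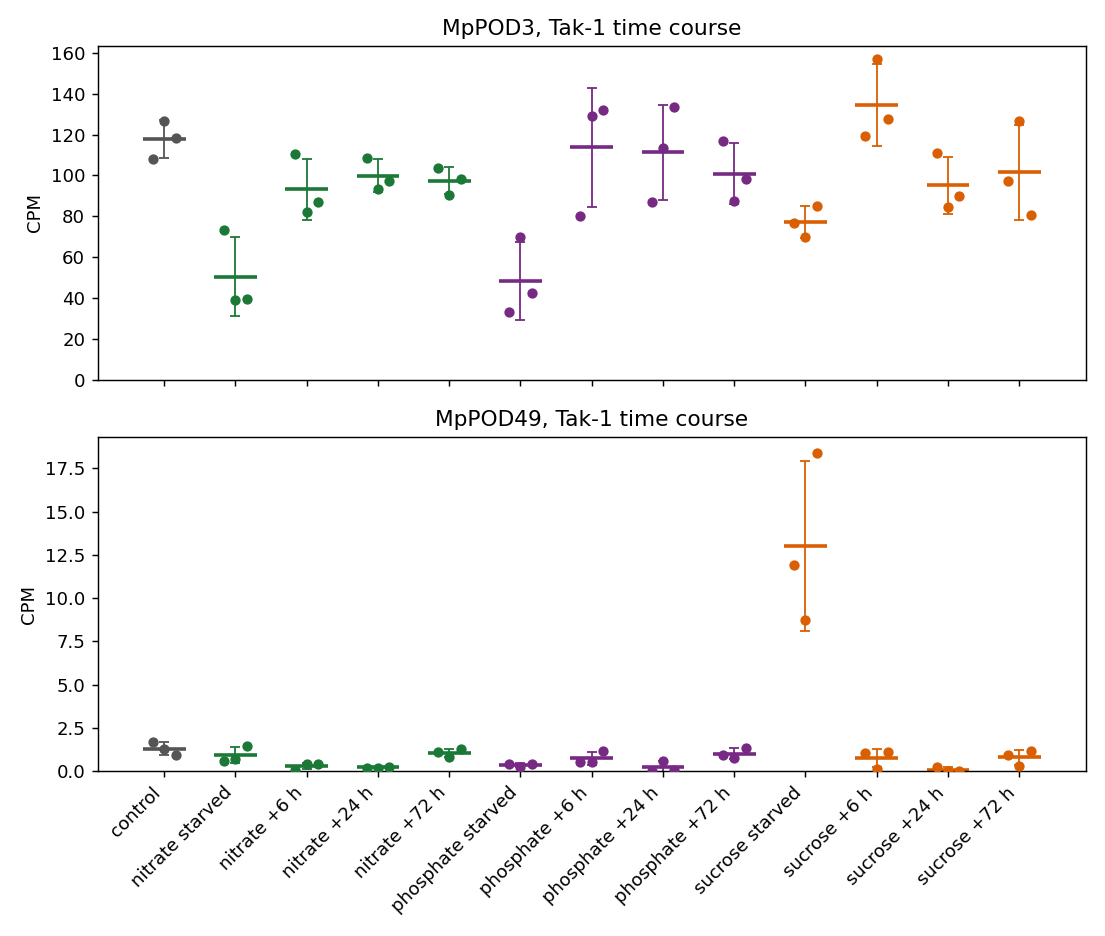
CPM of MpPOD3 (top) and MpPOD49 (bottom) in the 13 groups of the Tak-1 time course; points are libraries, horizontal lines are means and bars are ± SD (n = 3). The starved groups of MpPOD3 lie below the control and regain most of its level by 6 h of resupply, and MpPOD49 stands above 8 CPM in the sucrose-starved libraries while staying under 2 CPM in all other groups.

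MpPOD3 was above the starved libraries within 6 h of the return of full medium after each starvation. At 6 h after nitrate it held 93.3 ± 14.9 CPM, at 24 h 99.9 ± 7.99 CPM and at 72 h 97.3 ± 6.61 CPM. Against the nitrate-starved libraries it rose by 0.88 ± 0.23 (adjusted p = 0.00238), 0.98 ± 0.23 (adjusted p = 0.00156) and 0.94 ± 0.23 (adjusted p = 0.00197), with no overlap at any time. The shares of all genes called at these times were 42.3%, 29.9% and 32.5%.

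After phosphate return MpPOD3 held 114 ± 29.2, 111 ± 23.2 and 101 ± 15 CPM at 6, 24 and 72 h. The differences from the phosphate-starved libraries were 1.24 ± 0.23, 1.21 ± 0.23 and 1.06 ± 0.23, beside 46%, 33.9% and 33.8% of genes called. No resupplied library overlapped with a starved one. The starved libraries here are those that chose the gene, so no test is given.

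After sucrose return MpPOD3 was at 119, 157 and 127 CPM at 6 h (134 ± 19.9), the highest group mean of the time course. It rose by 0.80 ± 0.23 against the sucrose-starved libraries (adjusted p = 0.00293; 61.5% of genes called). At 24 and 72 h it held 95.2 ± 14.0 and 102 ± 23.2 CPM and overlapped with the starved libraries. The differences from starvation were then 0.30 ± 0.23 (95% interval -0.16 to 0.77, adjusted p = 0.269; 54.4% called) and 0.40 ± 0.23 (-0.07 to 0.86, adjusted p = 0.171; 39.6% called).

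At 72 h of resupply MpPOD3 did not pass the test against never-starved controls. The differences were -0.28 ± 0.23 after nitrate (95% interval -0.74 to 0.18, adjusted p = 0.49), -0.22 ± 0.23 after phosphate (-0.68 to 0.24, adjusted p = 0.619) and -0.21 ± 0.23 after sucrose (-0.67 to 0.25, adjusted p = 0.574). In these comparisons 9.68%, 7.09% and 15.2% of genes were called. After nitrate, all 3 libraries at 72 h lay below the lowest control library. Fitting only those 2 groups gave -0.27 with adjusted p = 0.0254.

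MpPOD49 had the opposite difference after sucrose return. It held 27, 3 and 24 counts at 6 h (0.759 ± 0.542 CPM), 6, 0 and 0 counts at 24 h (0.0767 ± 0.133 CPM) and 25, 7 and 27 counts at 72 h (0.787 ± 0.447 CPM). No resupplied library overlapped with a sucrose-starved one. The differences from sucrose starvation were -4.08 ± 0.61 at 6 h, -7.38 ± 0.81 at 24 h and -4.04 ± 0.61 at 72 h. The starved libraries are again those that chose the gene, so no test is given. The 24 h value rests on 6 counts over the group, all in replicate 1, and without that library the fitted value was -11.44, which depends on the prior count of the fit. A count of 0 allows up to 3 counts in a library.

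After nitrate return MpPOD49 was at 0.295 ± 0.196 CPM at 6 h, 0.217 ± 0.0383 CPM at 24 h and 1.05 ± 0.239 CPM at 72 h. Libraries at 6 and 24 h lay below all nitrate-starved libraries. The fall passed the test at 24 h (-2.03 ± 0.74, adjusted p = 0.0363) and not at 6 h (-1.59 ± 0.70, adjusted p = 0.0677, and 0.043 by DESeq2). The 24 h call was lost without starved replicate 3 or without any of the 3 libraries at 24 h, with adjusted p up to 0.171. At 72 h the difference was 0.20 ± 0.61 (adjusted p = 0.835).

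After phosphate return MpPOD49 was at 0.732 ± 0.357 CPM at 6 h, 0.228 ± 0.331 CPM at 24 h and 1.01 ± 0.299 CPM at 72 h. At 24 h the libraries held 0, 17 and 2 counts. None of the differences from phosphate starvation passed the test: 1.05 ± 0.71 at 6 h (adjusted p = 0.233), -0.58 ± 0.83 at 24 h (adjusted p = 0.622) and 1.53 ± 0.69 at 72 h (adjusted p = 0.0859). Replicate 2 was the high library at 24 h, and the value was -3.06 without it, -0.01 without replicate 1 and -0.18 without replicate 3. At 6 and 72 h no resupplied library overlapped with a starved one, and fitting only the 2 groups gave 1.54 at 72 h with adjusted p = 0.0206.

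At 72 h MpPOD49 differed from the controls by -0.33 ± 0.60 after nitrate (adjusted p = 0.786), -0.34 ± 0.60 after phosphate (adjusted p = 0.806) and -0.73 ± 0.62 after sucrose (adjusted p = 0.471). The libraries overlapped with the controls in each case. The widest 95% interval, for sucrose, ran from -1.99 to 0.53.

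The comparison of 72 h with 6 h of resupply uses no library that chose the members. MpPOD49 rose between these times after nitrate return by 1.79 ± 0.70 (adjusted p = 0.0481; 33.7% of genes called), and its libraries did not overlap. The call was lost without the expression filter (adjusted p = 0.0542) and without any of the 6 libraries compared, with adjusted p up to 0.183. After phosphate and sucrose return its differences were 0.48 ± 0.63 (adjusted p = 0.63; 24.5% of genes called) and 0.04 ± 0.66 (adjusted p = 0.962; 55.1% called).

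MpPOD3 was not called between 6 and 72 h. Its differences were 0.06 ± 0.23 after nitrate (95% interval -0.40 to 0.52, adjusted p = 0.864), -0.17 ± 0.23 after phosphate (-0.63 to 0.29, adjusted p = 0.624) and -0.40 ± 0.23 after sucrose (-0.86 to 0.06, adjusted p = 0.129). Without replicate 2 at 72 h the sucrose value was -0.60 (adjusted p = 0.0483).

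Ordered by mean, MpPOD3 ran from 134 CPM at 6 h of sucrose return through the control (118 CPM) and the other resupplied groups (93.3 to 114 CPM) to the sucrose-starved (77.2), nitrate-starved (50.6) and phosphate-starved (48.5 CPM) groups. In all 12 neighbouring pairs of that order the libraries overlapped, so the order is a gradient without a gap. MpPOD49 had gaps in 2 of its 12 neighbouring pairs. The larger gap lay between the sucrose-starved group and the control, and the other between 6 h of phosphate return (0.510 to 1.14 CPM) and the phosphate-starved group (0.222 to 0.414 CPM). The lowest group was 24 h of sucrose return. Over the 13 group means, log2 CPM of the genes had a Pearson r of -0.108, a description over groups that share libraries' scaling.

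MpPOD3 was lower in all 3 mutants than in Tak-1 under control conditions, libraries that played no part in choosing the genes. Tak-1 held 114, 98.2 and 112 CPM (108 ± 8.73). Mpcsd-2 held 52.8, 51.8 and 48.8 CPM (51.2 ± 2.06), Mperf20-21 held 83.8 ± 4.63 CPM and Mphd9-14 held 79.2 ± 2.48 CPM. No mutant library reached the lowest Tak-1 library, and the Mpcsd-2 libraries lay below all others.

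Against Tak-1, MpPOD3 fell by 1.08 ± 0.06 in Mpcsd-2 (adjusted p = 1.23e-10), fell by 0.37 ± 0.06 in Mperf20-21 (adjusted p = 0.00012) and fell by 0.45 ± 0.06 in Mphd9-14 (adjusted p = 1.38e-05). The shares of the 12565 genes called in these comparisons were 56.8%, 41.3% and 43.7%, and the 3 comparisons share the Tak-1 libraries.

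MpPOD49 held at most 4 counts per library in Tak-1, Mperf20-21 and Mphd9-14 of this set and at least 125 in Mpcsd-2. Mpcsd-2 held 138, 203 and 125 counts (6.54, 7.94 and 5.86 CPM; 6.78 ± 1.06), against 1, 4 and 4 counts in Tak-1 (0.131 ± 0.0728 CPM). Mperf20-21 held 3 counts in each library and Mphd9-14 held 1, 2 and 0 counts. MpPOD49 was 48.9-fold higher in Mpcsd-2 than in Tak-1, a difference of 5.61 ± 0.42 against the 9 counts of the Tak-1 group. Mperf20-21 differed from Tak-1 by -0.26 ± 0.65 (95% interval -1.63 to 1.10, adjusted p = 0.783). For Mphd9-14, with 3 counts over the group, no fold is given (adjusted p = 0.12). MpPOD49 passed the expression filter in this set through Mpcsd-2 alone, so a difference of that line was bound to be found and no test of it is given.

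Markers of oil body cells, a cell type of liverworts that stores terpenoids, also differed in Mpcsd-2. Of 3 listed markers 2 were matched, MpERF13 and MpSYP12B, and neither was at 0 in any library. Their summed level was 1.75 to 3.64 CPM in Mpcsd-2 and 8.61 to 10 CPM in Tak-1. In full medium of the mutant starvation set it was 4.19 to 4.63 CPM in Mpcsd-2 and 7.76 to 9.94 CPM in the other mutants. In the time course the same sum was 8.51 to 9.2 CPM after sucrose starvation and 8.83 to 11.1 CPM in controls, while the gemma cup gene MpGCAM1 was at 0.694 ± 0.326 and 2.94 ± 0.171 CPM. Their part in the levels of MpPOD3 and MpPOD49 was not tested.

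**Figure D2:**
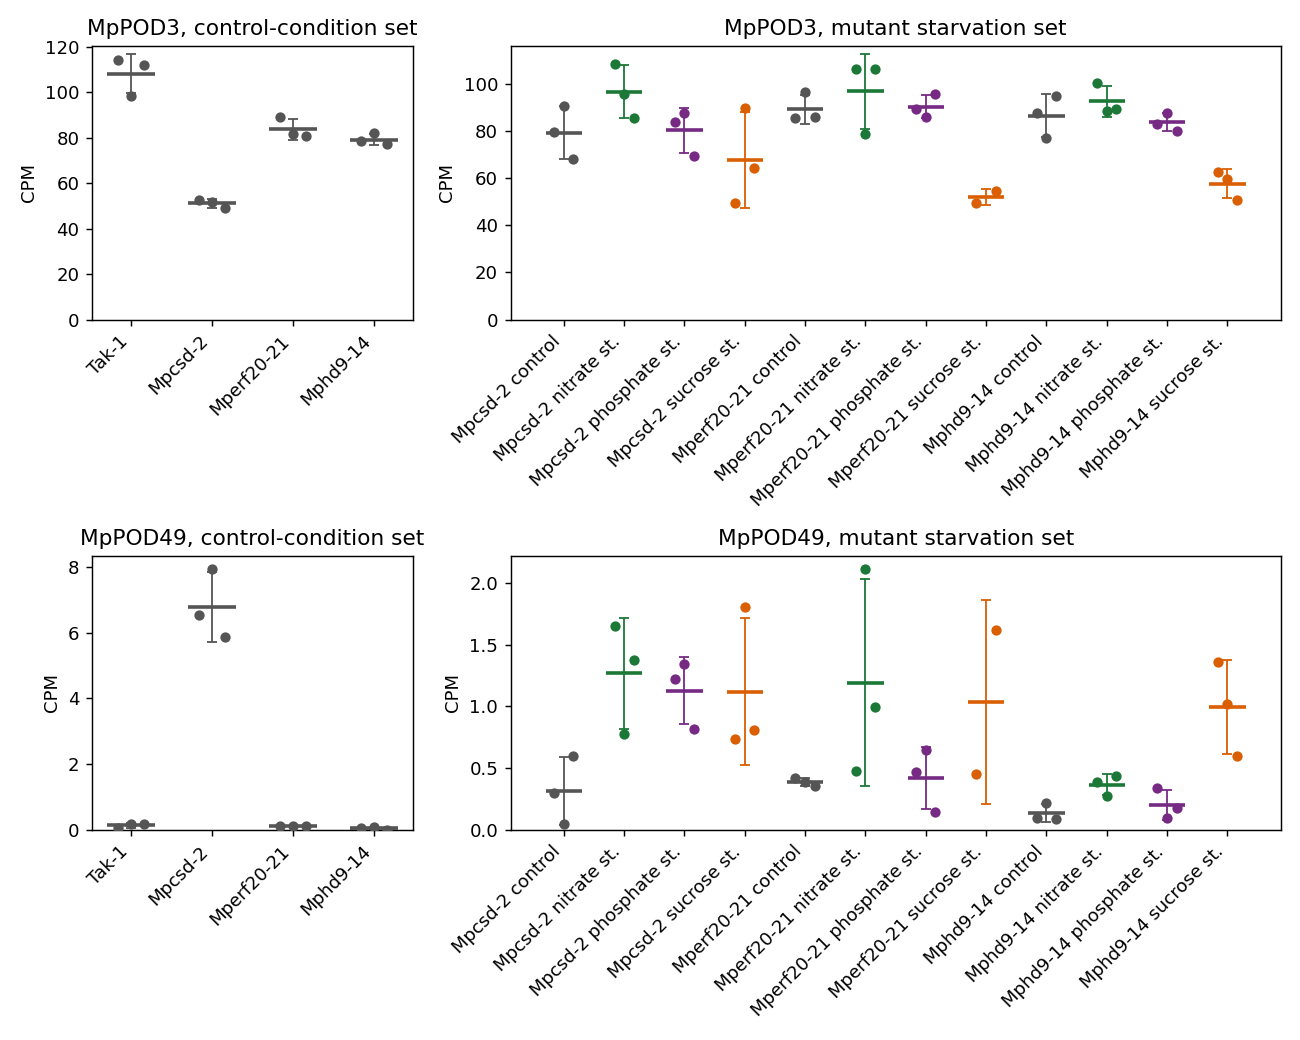
CPM of MpPOD3 (top) and MpPOD49 (bottom) in the control-condition set (left) and the mutant starvation set (right), where "st." means starved; points are libraries, horizontal lines are means and bars are ± SD (n = 3, and 2 for sucrose-starved Mperf20-21). In control conditions on the left, Mpcsd-2 is the lowest line for MpPOD3 and the highest for MpPOD49, whereas its control on the right holds 0.315 CPM of MpPOD49.

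The mutant starvation set gave another picture of Mpcsd-2 in full medium. There Mpcsd-2 held 6, 1 and 15 counts of MpPOD49 (0.315 ± 0.277 CPM), Mperf20-21 held 12, 10 and 10 counts (0.386 ± 0.0345 CPM) and Mphd9-14 held 2, 5 and 2 counts (0.133 ± 0.0734 CPM). Mpcsd-2 minus the mean of the other mutants was 6.54 ± 0.34 in the control-condition set (54% of genes called) and 0.49 ± 0.64 in the mutant starvation set (adjusted p = 0.612; 31.1% called). Without Mpcsd-2 control replicate 3 the latter value turned to -0.44, and without replicate 2 it was 0.99. The difference between the sets, in a joint fit, was 6.04 ± 0.85 (29.7% of genes called). It is given without a test, since it contains the control-condition difference, which was not tested.

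For MpPOD3 the same contrast was -0.67 ± 0.06 (adjusted p = 2.56e-08) in the control-condition set and -0.15 ± 0.13 (adjusted p = 0.406) in the mutant starvation set. The sets differed by -0.53 ± 0.16 (adjusted p = 0.0112). Without Mpcsd-2 control replicate 2 of the starvation set that difference was -0.42 (adjusted p = 0.0679). This comparison was added after the levels in both sets had been seen. MpGCAM1 also differed between the sets in full medium, at 3.23 ± 0.466 and 0.207 ± 0.136 CPM in Mpcsd-2, 2.57 ± 0.616 and 0.684 ± 0.203 CPM in Mperf20-21, and 5.16 ± 1.27 and 0.904 ± 0.408 CPM in Mphd9-14, on scales set separately for each table. Its part in the difference between the sets was not tested. Tak-1 in full medium likewise held 1.30 CPM of MpPOD49 in the time course and 0.131 CPM in the control-condition set, on scales set separately for each table.

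In the starved mutants MpPOD3 fell after sucrose starvation in 2 of the 3 lines, and no nitrate or phosphate comparison passed the test. Mperf20-21 went from 89.2 ± 6.15 CPM in full medium to 49.3 and 54.3 CPM (51.8 ± 3.49, n = 2), a fall by 0.78 ± 0.17 (adjusted p = 0.00155; 15.3% of 13162 genes called). Mphd9-14 went from 86.4 ± 8.99 CPM to 62.5, 59.7 and 50.5 CPM (57.6 ± 6.29), a fall by 0.58 ± 0.15 (adjusted p = 0.0043; 22.4% called). Neither starved group overlapped with its control.

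Mpcsd-2 held 79.2 ± 11.2 CPM of MpPOD3 in full medium and 49.5, 89.6 and 64.1 CPM without sucrose (67.7 ± 20.3). These groups overlapped, and the difference was -0.23 ± 0.15 (95% interval -0.53 to 0.07, adjusted p = 0.264; 26.2% of genes called). Replicate 2 was the high library, and without it the value was -0.48 (adjusted p = 0.0181).

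After nitrate and phosphate starvation MpPOD3 stayed at 80.2 to 96.8 CPM in group means across the 3 mutants, and starved libraries overlapped with controls in all 6 comparisons. The nitrate differences were 0.29 ± 0.15 in Mpcsd-2 (95% interval -0.01 to 0.58, adjusted p = 0.543), 0.12 ± 0.14 in Mperf20-21 (-0.18 to 0.41, adjusted p = 0.827) and 0.10 ± 0.14 in Mphd9-14 (-0.20 to 0.40, adjusted p = 0.988). The phosphate differences were 0.02 ± 0.15 (-0.28 to 0.31), 0.02 ± 0.14 (-0.28 to 0.31) and -0.05 ± 0.15 (-0.34 to 0.25), with adjusted p of 0.962, 0.979 and 0.982. Nitrate starvation called 1.85%, 3.25% and 1.22% of genes in the 3 lines, and phosphate starvation 7.8%, 4.57% and 2.3%.

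MpPOD49 was above its control mean in all 9 comparisons of starved mutants, at low counts, and 2 of them passed the test. The nitrate, phosphate and sucrose comparisons of a line share its control libraries, so they are not independent of each other. Sucrose starvation called 26.2% of genes in Mpcsd-2, 15.3% in Mperf20-21 and 22.4% in Mphd9-14. In sucrose-starved Mphd9-14 it held 31, 18 and 12 counts (0.992 ± 0.379 CPM) against 2, 5 and 2 in full medium, a rise by 2.84 ± 0.72 (adjusted p = 0.00437). In sucrose-starved Mpcsd-2 it held 14, 34 and 17 counts (1.12 ± 0.597 CPM) and rose by 1.77 ± 0.61 (adjusted p = 0.0331). The libraries did not overlap with the controls in either line. Starved libraries were needed for MpPOD49 to pass the expression filter in this set. Its tests of starved against control libraries, under any nutrient, are therefore not independent of the filter. The Mpcsd-2 call was lost when only the 2 groups were fitted (adjusted p = 0.212) and without control replicate 1 or 2 or starved replicate 2 (adjusted p up to 0.234), and without control replicate 3 the value was 2.7. Sucrose-starved Mperf20-21 held 10 and 32 counts (1.03 ± 0.828 CPM, n = 2), and its difference was 1.39 ± 0.64 (adjusted p = 0.151), or 2.05 without starved replicate 1 and 0.21 without starved replicate 2.

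Under nitrate starvation MpPOD49 was at 1.27 ± 0.448 CPM in Mpcsd-2, 1.19 ± 0.838 CPM in Mperf20-21 and 0.364 ± 0.0841 CPM in Mphd9-14. No starved library overlapped with its control. Lack of overlap is a description here and elsewhere, and the share of all genes without overlap is not given. The differences of 1.96 ± 0.60 (adjusted p = 0.103), 1.63 ± 0.57 (adjusted p = 0.139) and 1.42 ± 0.81 (adjusted p = 0.721) did not pass the test. In these comparisons 1.85%, 3.25% and 1.22% of genes were called. Under phosphate starvation the differences were 1.79 ± 0.60 in Mpcsd-2 (adjusted p = 0.0674), where the groups did not overlap, 0.11 ± 0.65 in Mperf20-21 (adjusted p = 0.968) and 0.58 ± 0.91 in Mphd9-14 (adjusted p = 0.96), where they did. Without control replicate 3 the Mpcsd-2 phosphate value was 2.72 (adjusted p = 0.0283).

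**Figure D3:**
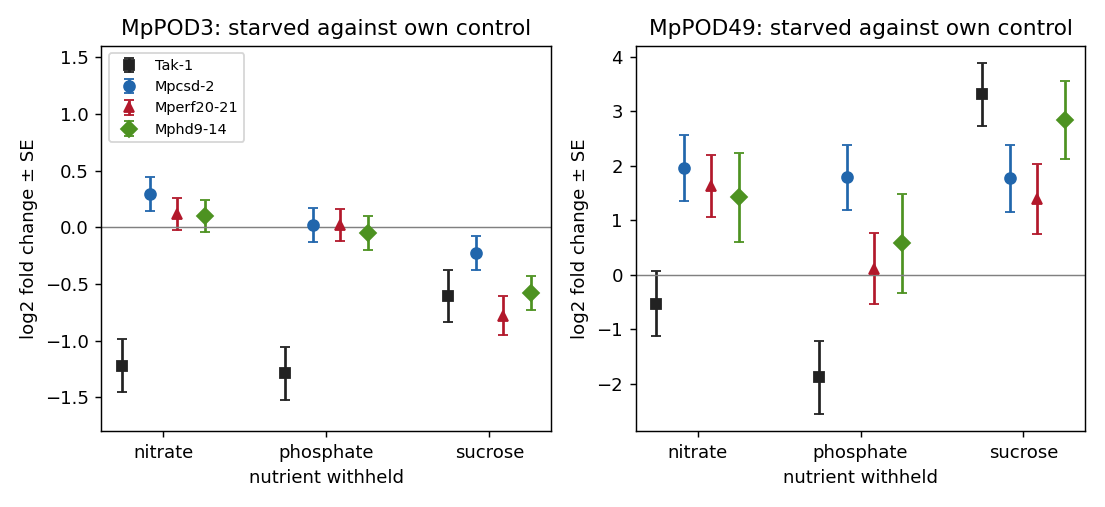
Log2 fold change ± SE of MpPOD3 (left) and MpPOD49 (right) in starved against control libraries of the same line, by nutrient withheld; symbols are the 4 lines, and the vertical scales differ. For MpPOD3 the Tak-1 squares lie below -1 for nitrate and phosphate while the mutants lie within 0.3 of 0. For sucrose the lines lie between -0.78 and -0.23. For MpPOD49 the Tak-1 squares are below 0 for nitrate and phosphate and above it for sucrose. Tak-1 was starved in the time course and the mutants in another set, so genotype and experiment cannot be told apart. Nitrate starvation called 31.6% of all genes in Tak-1, 1.85% in Mpcsd-2, 3.25% in Mperf20-21 and 1.22% in Mphd9-14.

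The response of MpPOD3 to nitrate starvation differed between each mutant and Tak-1. The mutant response minus that of Tak-1 was 1.49 ± 0.28 in Mpcsd-2 (adjusted p = 0.000519; 10.3% of 13559 genes called), 1.32 ± 0.28 in Mperf20-21 (adjusted p = 0.000988; 14% called) and 1.31 ± 0.28 in Mphd9-14 (adjusted p = 0.00114; 14.3% called). For sucrose the same differences were 0.36 ± 0.28 (95% interval -0.20 to 0.93, adjusted p = 0.574), -0.20 ± 0.29 (-0.79 to 0.40, adjusted p = 0.883) and 0.00 ± 0.28 (-0.56 to 0.57, adjusted p = 1), where 2.6%, 1.17% and 2.51% of genes were called. For phosphate, the contrast that chose the gene, they were 1.29 ± 0.28, 1.28 ± 0.28 and 1.22 ± 0.28 and were not tested.

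MpPOD49 also differed from Tak-1 in its nitrate response in 2 lines. The difference was 2.48 ± 0.75 in Mpcsd-2 (adjusted p = 0.0281), 2.15 ± 0.72 in Mperf20-21 (adjusted p = 0.0403) and 1.95 ± 0.94 in Mphd9-14 (adjusted p = 0.174). Each of the first 2 calls was lost on leaving out any of 8 libraries, given with the limits of processing. For phosphate it was 3.66 ± 0.79 in Mpcsd-2 (adjusted p = 0.00415; 6.31% of genes called), 1.97 ± 0.85 in Mperf20-21 (adjusted p = 0.192; 4.48% called) and 2.44 ± 1.09 in Mphd9-14 (adjusted p = 0.203; 4.73% called). For sucrose, which chose the gene, the differences were -1.56 ± 0.77, -1.95 ± 0.77 and -0.48 ± 1.02 and were not tested.

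The 3 mutants share the Tak-1 libraries in these contrasts, and the Tak-1 controls also entered the contrasts that chose the genes. The p-values against Tak-1 are therefore not independent of that choice. Tak-1 was starved in the time course and the mutants in another set, so genotype and experiment cannot be told apart. Between the mutants, where set and genotype are not confounded, 0 of 18 response differences of the 2 genes were called by edgeR or by DESeq2, and 1 had an unadjusted p under 0.05. That was MpPOD3 under sucrose starvation, Mpcsd-2 minus Mperf20-21, at 0.56 ± 0.22 (95% interval 0.11 to 1.01, unadjusted p = 0.0174, adjusted p = 0.604). For Mpcsd-2 minus Mperf20-21, Mpcsd-2 minus Mphd9-14 and Mperf20-21 minus Mphd9-14, the shares of genes called were 0%, 0.0228% and 0% under nitrate starvation. They were 0.0912%, 0.319% and 0.0076% under phosphate starvation and 0.0304%, 0.152% and 0.0228% under sucrose starvation.

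Of the 164 class III peroxidases, 70 passed the expression filter in the time course, 42 in the control-condition set and 65 in the mutant starvation set. Genes that pass through 1 high group had to differ, so the counts that follow describe and test nothing. In Tak-1, nitrate starvation had 10 called higher and 3 lower, phosphate starvation 5 and 4, and sucrose starvation 10 and 8. The shares called, 18.6%, 12.9% and 25.7%, were below those of all genes given above. Median log2 fold changes over the 70 were 0, 0.45 and -0.01 beside 0.01, 0.01 and -0.01 for all genes. Among the 70, MpPOD3 ranked 17th from the bottom under nitrate, 4th under phosphate and 22nd under sucrose starvation. MpPOD49 ranked 22nd from the bottom under nitrate and 2nd under phosphate starvation, and 2nd from the top under sucrose starvation. The phosphate rank of MpPOD3 and the sucrose rank of MpPOD49 come from the contrasts that chose the genes.

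The peroxidases named here were picked for the largest called changes. The peroxidase above MpPOD49 under sucrose starvation was MpPOD158, which went from 0.0953 ± 0.165 CPM, near the floor, to 1.34 ± 0.529 CPM (3.61 ± 0.87). Its differences were 3.45 ± 0.86 under nitrate and 4.58 ± 0.84 under phosphate starvation. The starved groups held its highest means of the time course and helped it pass the filter, so no test of MpPOD158 is given. MpPOD167 rose under sucrose starvation from 114 ± 10.7 to 453 ± 106 CPM (1.99 ± 0.27, adjusted p = 9.64e-07). On the side of MpPOD3, MpPOD161 fell by 1.32 ± 0.34 under nitrate starvation (adjusted p = 0.0031) and fell by 1.76 ± 0.36 under phosphate starvation (adjusted p = 0.000596). MpPOD143 fell under nitrate starvation from 29.5 ± 0.845 to 14.7 ± 1.77 CPM (-1.01 ± 0.13, adjusted p = 4.52e-07), and under sucrose starvation it fell by 1.17 ± 0.13 (adjusted p = 4.49e-08).

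**Figure D4:**
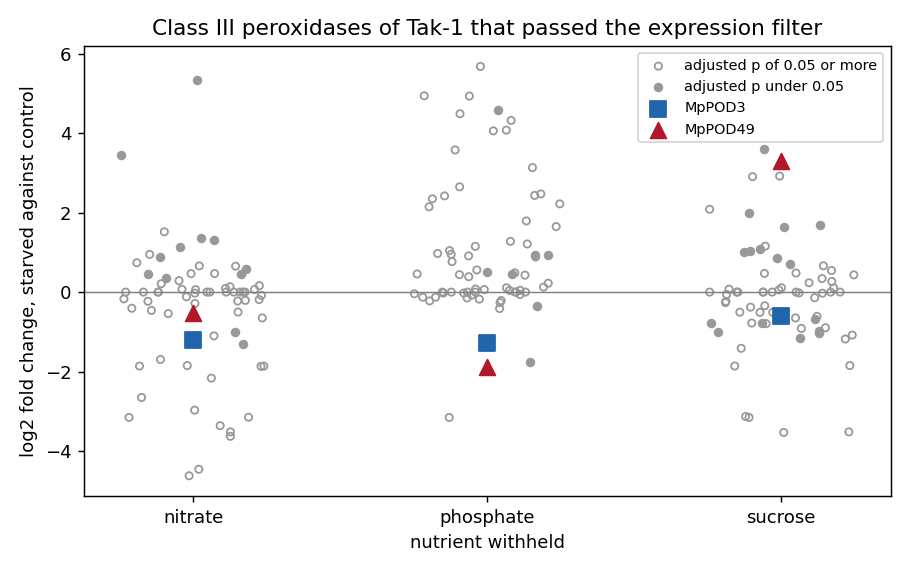
Log2 fold change of the 70 class III peroxidases that passed the expression filter in starved against control Tak-1 libraries, by nutrient withheld; circles are the other family members, filled where the adjusted p was under 0.05, a square marks MpPOD3 and a triangle MpPOD49, and the sideways spread is for visibility. MpPOD3 lies below 0 under all 3 starvations, and MpPOD49 lies near the bottom for phosphate and near the top for sucrose.

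Under phosphate starvation of the mutants, called family members were 28 higher and 0 lower in Mpcsd-2, 23 and 0 in Mperf20-21 and 18 and 0 in Mphd9-14, with medians over the 65 of 1.38, 0.83 and 0.99 beside -0.01, 0 and 0 for all genes. These were 43.1%, 35.4% and 27.7% of the 65, beside 7.8%, 4.57% and 2.3% of all genes. MpPOD3 and MpPOD49 were not among those called; MpPOD49 in Mpcsd-2 differed by 1.79, and no difference from the family was tested. Fitting only the groups compared gave 10 called members in Mpcsd-2, leaving out control replicate 1 gave 13 in Mperf20-21, and leaving out control replicate 2 or starved replicate 2 gave 11 in Mphd9-14. Under sucrose starvation the counts were 10 higher and 6 lower, 7 and 5, and 11 and 9 (24.6%, 18.5% and 30.8%, beside 26.2%, 15.3% and 22.4% of all genes). Under nitrate starvation they were 4 and 1, 8 and 2, and 12 and 0 (7.69%, 15.4% and 18.5%, beside 1.85%, 3.25% and 1.22%). In the control-condition set they were 20 and 10 in Mpcsd-2, 8 and 11 in Mperf20-21 and 9 and 8 in Mphd9-14, with medians over the 42 of 0.54, 0.02 and -0.03 beside -0.02, -0.01 and -0.02 for all genes. The shares called were 71.4%, 45.2% and 40.5%, beside 56.8%, 41.3% and 43.7% of all genes.

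Other genes of peroxide and phenolic metabolism were listed by symbol, and none carried a symbol of NADPH oxidases or laccases (0 genes each). In the 3 comparisons that follow, 31.6%, 24.6% and 35.3% of all genes were called. Under nitrate, phosphate and sucrose starvation of Tak-1, called members among 4 tested peroxiredoxins, which reduce peroxides, were 0 higher and 2 lower, 0 and 3, and 0 and 3. The 2 glutathione peroxidases had 2, 1 and 2 called lower and 0 higher, with MpGPX2 at -0.52 ± 0.09 under nitrate starvation (adjusted p = 1.96e-05). Among 5 superoxide dismutases, which form hydrogen peroxide from superoxide, 2 were higher and 1 lower, 1 and 1, and 1 and 0. MpSOD3 rose by 0.62 ± 0.09 under nitrate starvation (adjusted p = 2.53e-06). Of 4 ascorbate peroxidases, 0 were higher and 1 lower, 0 and 1, and 1 and 1, and of 3 tested genes with the symbol CAT, 0 were higher and 1 lower under each starvation.

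Of 30 tested polyphenol oxidases, which oxidise phenolics with oxygen, 5 were higher and 1 lower, 5 and 4, and 5 and 6, which is 20%, 30% and 36.7% of them beside 31.6%, 24.6% and 35.3% of all genes. MpPPO32 rose by 3.62 ± 0.34 under phosphate starvation (adjusted p = 6.78e-09). Of 15 tested genes of phenylpropanoid synthesis, the route to many phenolics, 1 was higher and 3 lower, 2 and 0, and 3 and 2, with MpHCT at -0.81 ± 0.14 under nitrate starvation (adjusted p = 2.69e-05). Of 36 tested dirigent proteins, which guide the coupling of phenolic radicals, 4 were higher and 3 lower, 3 and 3, and 4 and 10. MpDIR27 fell by 1.44 ± 0.26 under nitrate starvation (adjusted p = 7.12e-05) and fell by 1.88 ± 0.28 under sucrose starvation (adjusted p = 4.36e-06). Over all these lists other than the class III peroxidases, the calls under nitrate starvation went from 26 to 16 without starved replicate 3. Under phosphate starvation they went from 25 to 15 without control replicate 2, control replicate 3 or starved replicate 3.

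Across the 13 group means of log2 CPM, the genes most like MpPOD3 among 13503 compared were Mp4g12430 (Pearson r = 0.967), Mp8g18400 (0.962), Mp2g25750 (0.961), MpDFR-like17 (0.951) and Mp3g23500 (0.951). Over the 12 mutant starvation groups, r with MpPOD3 was 0.266, 0.073, 0.204, 0.135 and 0.776 for the same genes. The class III peroxidase most like it was MpPOD161 (r = 0.649, rank 1060). The genes most like MpPOD49 were MpFBA2 (r = 0.941), MpRLK-Pelle_RLCK-IXa (0.906), Mp6g12820 (0.905), Mp4g10310 (0.887) and Mp2g08220 (0.882), with r of 0.521, 0.343, 0.302, 0.396 and -0.51 over the mutant groups. The class III peroxidase most like MpPOD49 was MpPOD164 (r = 0.561, rank 866). Pearson r leaves out the size of a change. From control to sucrose starvation, MpPOD49 went from 1.30 to 13 CPM, MpFBA2 from 3420 to 4000 CPM and MpPOD164 from 434 to 394 CPM. The r values are descriptions over groups that share libraries within a set, and those of the time course include the groups that chose the genes.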

How the data were processed

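RNA-seq of M. polymorpha gemmalings was analysed from 3 tables of whole-number counts per gene, as the authors deposited them. Per the labels' protocols, libraries were directional and made from poly-A enriched RNA. The authors used STAR 2.7 and DESeq2, per the submitters' processing notes. Genome build, annotation, counting program and strand setting are not given in the sources used here. How reads of near-identical peroxidase genes or of antisense genes were assigned is therefore unknown. The Klebsormidium nitens table was not used here.

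The 86 library columns matched the labels (0 unmatched), and 0 pairs of libraries were identical. Symbols came from a names table of assembly MpTak2_v7.1, whose coordinates were not used. Of 19355 identifiers 17384 matched it and 3091 had a symbol. Class III peroxidases were the genes whose symbol is POD with a number.

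Each table was fitted in R 4.3.3 by edgeR 4.0.16 with limma 3.58.1. The fits had TMM scaling, the filterByExpr filter, a mean per group and two-sided quasi-likelihood F-tests with Benjamini-Hochberg adjustment over all genes tested. The responses of mutants against Tak-1 came from 1 fit over the control and starved libraries of the time course and the mutant starvation set. SE is the log2 fold change divided by the root of F, and intervals (95%) are for the difference of group means, computed from that SE. Alternatives were RLE size factors, no filter, DESeq2 1.42.0, a replicate block, only the groups compared, and each library left out. The fits were tested on simulated counts.

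The members, the lists and the rule for other names were chosen with earlier results of these data known. The rule took the 5 genes most alike in pattern, up to 3 called peroxidases per direction with the largest changes at 1 CPM or more in the higher group, and up to 2 genes per list by adjusted p; not all of these are printed. Its part on protein identity could not be applied. The labels do not state that replicates were separate cultures. The p-values thus reflect only how these samples vary, which may be technical variation. Totals of 16878159 to 38992957 counts set the precision.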

Additional observations from a re-analysis of the deposited data

Results flagged for a closer look

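The starvation response of these genes differed from Tak-1 in 6 contrasts that passed the test of the difference itself. The sucrose contrasts of MpPOD3 and the remaining tested contrasts of MpPOD49 did not pass. Over all genes, the nitrate contrasts called 10.3% in Mpcsd-2, 14% in Mperf20-21 and 14.3% in Mphd9-14. The phosphate contrast of Mpcsd-2 called 6.31%. For MpPOD3 under nitrate starvation the response exceeded that of Tak-1 by 1.49 in Mpcsd-2, 1.32 in Mperf20-21 and 1.31 in Mphd9-14 on the log2 scale. For MpPOD49 under nitrate starvation it did so by 2.48 in Mpcsd-2 and 2.15 in Mperf20-21, and under phosphate starvation by 3.66 in Mpcsd-2. Both nitrate calls of MpPOD49 were lost on leaving out single libraries, with edgeR adjusted p up to 0.0757 in Mpcsd-2 and 0.223 in Mperf20-21. Against the mutant's own control, none of these MpPOD49 responses passed the edgeR test (adjusted p = 0.103, 0.139 and 0.0674). Genotype and experiment cannot be told apart in these 6 contrasts, and their Tak-1 controls also entered the contrasts that chose the genes.

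The same lines in full medium also gave different values in the control-condition set and the mutant starvation set. Mpcsd-2 minus the mean of the other mutants differed between the sets by -0.53 for MpPOD3. This comparison was added after the levels in both sets had been seen. Its call was lost without 1 library (edgeR adjusted p = 0.0679). For MpPOD49 the difference was 6.04, a description, since it contains the control-condition difference, which was not tested.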

How the results depend on the processing

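With a replicate block, all 114 results kept their direction (values of 0 aside) and their side of the threshold, or a count within 1.5 times, as they did with RLE size factors. Nitrate starvation of Tak-1 called 4140 genes with the block and 4261 without it. Of 30 comparisons, 0 had all pairs of same-numbered libraries deviating together with r over 0.1 (r from -0.33 to 0.32). The labels do not state whether same-numbered samples were grown or processed together. With DESeq2, MpPOD49 passed at 6 h of nitrate return (-1.63), and without the filter its 72 h against 6 h value did not (1.80).

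Fitting only the groups compared brought past the threshold MpPOD3 at 72 h of nitrate return against control (-0.27), MpPOD3 at 24 h of sucrose return (0.30) and MpPOD49 at 72 h of phosphate return (1.54). It took below it MpPOD49 for the nitrate response of Mpcsd-2 (2.49) and for sucrose starvation in Mpcsd-2 (1.74). Called peroxidases became 0 (nitrate), 10 (phosphate) and 3 (sucrose) in Mpcsd-2 and 22 (nitrate) in Mphd9-14. The causes were not tested.

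Leaving out each library gave, for MpPOD3, -0.68 to -0.54 (sucrose starvation, Tak-1), -0.60 to -0.27 (sucrose return, 72 h against 6 h), -0.48 to -0.04 (sucrose starvation, Mpcsd-2) and -0.62 to -0.42 (difference between sets). For MpPOD49 it gave -2.08 to -1.64 (phosphate starvation, Tak-1), -2.27 to -1.57 (24 h of nitrate return), 1.34 to 2.19 (nitrate return, 72 h against 6 h), 1.29 to 2.72 (phosphate, Mpcsd-2) and 1.25 to 2.7 (sucrose, Mpcsd-2). Its nitrate response against Tak-1 ran from 1.99 to 3.43 in Mpcsd-2, with the call lost without any of Mpcsd-2 control replicates 1 and 2, its starved replicates 1 and 3, Tak-1 control replicates 1 and 2 or Tak-1 starved replicates 1 and 2. In Mperf20-21 it ran from 1.43 to 2.64, with the call lost without any of its 3 controls, its starved replicate 2, or the same 4 Tak-1 libraries.

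Called peroxidases without 1 library ran from 4 to 11 under phosphate starvation of Tak-1. In Mpcsd-2 they ran from 2 to 7 (nitrate) and 9 to 17 (sucrose), in Mperf20-21 from 5 to 13, 13 to 20 and 5 to 10 (nitrate, phosphate, sucrose), and in Mphd9-14 from 1 to 8, 11 to 17 and 12 to 19. Libraries whose loss moved the nitrate counts by over 1.5 times were Mpcsd-2 control replicates 1 and 3 and starved replicate 1, Mperf20-21 control replicate 3 and starved replicate 1, and Mphd9-14 controls 1, 2 and 3 and starved 1 and 3. For phosphate they were Tak-1 control replicate 1 and starved replicate 1, Mperf20-21 control replicate 1, and Mphd9-14 control replicate 2 and starved replicate 2. For sucrose they were Mpcsd-2 starved replicate 2, Mperf20-21 starved replicate 1, and Mphd9-14 control replicate 1 and starved replicates 2 and 3. Depth limits MpPOD49, which held at most 57 counts in a library outside sucrose-starved Tak-1 and Mpcsd-2 of the control-condition set.

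Leaving out 1 library also turned the direction of values that had not passed the test. For MpPOD3 these were 72 h against 6 h of nitrate return (-0.02 to 0.20), phosphate starvation in Mpcsd-2 (-0.08 to 0.12), Mperf20-21 (-0.02 to 0.08) and Mphd9-14 (-0.13 to 0.03), the phosphate responses of Mpcsd-2 minus Mphd9-14 (-0.03 to 0.17) and Mperf20-21 minus Mphd9-14 (-0.01 to 0.15), and the nitrate response of Mperf20-21 minus Mphd9-14 (-0.05 to 0.15). For MpPOD49 they were 72 h of nitrate return against starvation (-0.04 to 0.67), 72 h against 6 h of sucrose return (-0.44 to 0.43), Mperf20-21 against Tak-1 (-0.62 to 0.01), phosphate starvation in Mperf20-21 (-0.32 to 0.52) and Mphd9-14 (-0.03 to 1.11), and Mpcsd-2 minus the other mutants in the starvation set (-0.44 to 0.99). Its responses between mutants did so for Mpcsd-2 minus Mperf20-21 under nitrate (-0.17 to 1.26) and sucrose starvation (-0.28 to 1.56) and for Mperf20-21 minus Mphd9-14 under nitrate (-0.53 to 0.59) and phosphate starvation (-0.99 to 0.15).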

Other observations

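Genes of phenolic metabolism were also counted in Mpcsd-2 against Tak-1 under control conditions. The other mutants are not described here, and a link with MpPOD49 was not tested. Of 15 tested genes of phenylpropanoid synthesis, 10 were called higher than in Tak-1 and 3 lower, with a median log2 fold change of 0.67 beside -0.02 for all genes. Of 25 tested polyphenol oxidases, 3 were called higher and 15 lower, with a median of -0.67. Of 38 tested dirigent proteins, 14 were higher and 15 lower. In this comparison 56.8% of all genes were called.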
